A study of Mus musculus with 18 samples.

Results

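Cblb, Btla, Ptpn6, Ptpn22, Dgka, Dgkz and Ubash3a are 7 genes whose products restrain signals from the antigen receptors of lymphocytes. Their accessible chromatin was read in B cells and T cells of the mouse spleen. A region of the deposited table was taken as a brake region when, among protein-coding genes, the nearest gene end lay within 50 kb and belonged to one of the 7 genes. This gave 35 of 27396 regions: 7 each for Cblb and Btla, 5 each for Ptpn22 and Dgkz, 4 each for Ptpn6 and Dgka and 3 for Ubash3a. Of all regions, 23766 had a protein-coding gene end within 50 kb.

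The measurement was ATAC-seq, which reads the DNA that a transposase can reach and so counts fragments of accessible chromatin. Fresh frozen spleen sections were tagmented in place, and immunostained cells were then cut out by laser capture microdissection. Patches were taken as 5 libraries of B cells and 5 of T cells, and sets of 100 nuclei as 4 libraries of B cells and 4 of T cells. All came from the spleen of mice of strain C57BL/6J WT (genotype wt), and no treatment is labelled. A patch library pooled 10 captured areas of about 100 nuclei each, close to 1000 nuclei in all, and the smaller libraries held 100 nuclei captured singly. The sources used here do not give the stained markers, the ages or the number of mice. Libraries of a group were technical replicates per the series' design text, and none was tied to an animal, so a p-value here covers the spread between libraries only and, read as a statement about mice, is too small.

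Antigen receptors of B and T cells signal through tyrosine kinases that phosphorylate adaptors and open calcium and Ras pathways. Several layers of inhibition hold this signal in check. Inhibitory receptors such as BTLA bring phosphatases to the membrane, the phosphatases SHP-1 (encoded by Ptpn6) and PTPN22 remove phosphate from kinases and receptors, and the ubiquitin ligase CBL-B (encoded by Cblb) marks signalling proteins. The diacylglycerol kinases DGK-alpha and DGK-zeta (encoded by Dgka and Dgkz) remove the lipid that activates Ras, and UBASH3A dampens T cell receptor signals.

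The promoters of 5 of the genes are shown because the start-site regions differ in level and in base makeup. Each sequence is RefSeq's window from 250 bases before to 50 bases after a transcription start, on build GRCm38.p6, written 5′ to 3′ on the gene's strand. Capitals mark matches, on either strand, to any of 12 motifs; overlapping matches run together. The windows are Cblb at chr16:52031299-52031598 (plus strand), Dgkz at chr2:91963514-91963813 (minus strand), Ptpn6 at chr6:124738660-124738959 (minus strand), Btla at chr16:45224087-45224386 (plus strand) and Ubash3a at chr17:31207816-31208115 (plus strand).
Cblb: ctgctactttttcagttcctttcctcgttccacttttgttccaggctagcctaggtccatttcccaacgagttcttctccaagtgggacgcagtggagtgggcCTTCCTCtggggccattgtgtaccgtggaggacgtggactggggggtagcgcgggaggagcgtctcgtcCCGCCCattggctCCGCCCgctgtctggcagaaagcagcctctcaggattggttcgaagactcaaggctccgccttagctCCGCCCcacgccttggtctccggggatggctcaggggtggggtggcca
Dgkz: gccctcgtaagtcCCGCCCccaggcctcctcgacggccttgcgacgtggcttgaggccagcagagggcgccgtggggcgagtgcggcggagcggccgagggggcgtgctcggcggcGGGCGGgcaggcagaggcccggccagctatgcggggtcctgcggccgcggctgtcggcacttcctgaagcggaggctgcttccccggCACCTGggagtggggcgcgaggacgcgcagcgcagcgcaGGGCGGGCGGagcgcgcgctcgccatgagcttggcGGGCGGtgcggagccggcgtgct
Ptpn6: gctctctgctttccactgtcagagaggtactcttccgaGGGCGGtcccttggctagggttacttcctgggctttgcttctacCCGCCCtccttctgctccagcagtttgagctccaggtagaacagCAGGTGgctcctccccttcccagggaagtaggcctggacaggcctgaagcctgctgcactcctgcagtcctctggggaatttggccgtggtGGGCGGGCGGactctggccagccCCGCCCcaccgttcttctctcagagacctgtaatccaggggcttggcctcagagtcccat
Btla: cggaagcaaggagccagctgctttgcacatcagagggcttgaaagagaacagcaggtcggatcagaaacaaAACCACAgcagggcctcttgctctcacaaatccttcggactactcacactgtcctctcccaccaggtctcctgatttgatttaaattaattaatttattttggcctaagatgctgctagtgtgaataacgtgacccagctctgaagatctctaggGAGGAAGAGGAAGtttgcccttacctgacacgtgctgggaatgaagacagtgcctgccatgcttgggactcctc
Ubash3a: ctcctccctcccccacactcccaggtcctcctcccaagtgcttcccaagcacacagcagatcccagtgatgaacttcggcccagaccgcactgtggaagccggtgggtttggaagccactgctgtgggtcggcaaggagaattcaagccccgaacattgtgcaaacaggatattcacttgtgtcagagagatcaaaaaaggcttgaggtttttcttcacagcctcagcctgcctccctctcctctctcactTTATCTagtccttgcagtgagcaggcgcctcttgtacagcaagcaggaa

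The table of promoters held 12 windows for the 7 genes, of 32851 windows in all. The Cblb window had 61.3% G and C and 17 CpG pairs, and the first Dgkz window had 77.7% and 43 CpG pairs. The Btla window had 49.0% and 5 CpG pairs, the Ubash3a window 54.7% and 6, and the Ptpn6 window 61.7% and 8, beside medians of 52.7% and 7 CpG pairs over all windows. Among the printed windows, those of Cblb and of the first Dgkz start are thus CpG-rich, while those of Btla, Ptpn6 and Ubash3a are near the median in CpG pairs. Of the windows not printed, the second of Dgkz had 61.7% G and C and 10 CpG pairs. Those of Dgka had 4, 17, 28 and 13 CpG pairs, and those of Ptpn22 had 6 and 3.

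The SP/KLF letters GGGCGG stood in 7 of the 12 windows (4 of the 7 genes) and in 35.7% of all windows. The Dgka windows chr10:128744027-128744326 and chr10:128743829-128744128 overlap and share matches, so that stretch is counted more than once. The ETS letters GAGGAAG stood in 4 of the 12 and in 13.6% of all, and RUNX TGTGGTT in 2 of the 12, those of Btla and the second Ptpn22 start, and in 5.27% of all. E-box CAGGTG stood in 2 of the 12 (20.2% of all), and the GATA-factor letters AGATAA in 1, that of Ubash3a (11.2% of all). No window of the 7 genes held ETS CGGAAGT (6.42% of all), TCF/LEF CTTTGAT (3.73%), AP-1 TGANTCA (7.81%), YY1 AAGATGG (6.34%) or the 10-letter motifs of NF-kB (0.411%), IRF (3.44%) and EBF (0.904%). These matches describe letters in a window and were not tested as binding sites.

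Depth set what could be seen. Totals were 2713677 to 6553535 counts per library in B patches, 2193837 to 7343204 in T patches, 547333 to 720555 in B 100 nuclei and 319481 to 1076765 in T 100 nuclei. Mitochondrial regions took 27.6% ± 6.24 of the counts in B patches, against 19.4% ± 3.09 in T patches (SD, n = 5 each). The brake regions took 0.124% ± 0.00665 of nuclear counts in B patches, against 0.131% ± 0.0120 in T patches (SD, n = 5 each). The labels were checked against marker genes. Of 28 regions near B cell markers tested in patches, 9 were higher in B and 0 lower, and of 36 near T cell markers 0 were higher and 8 lower. Regions near markers of the other lineage also held some counts. Those near T markers held 0.0304% to 0.0463% of nuclear counts in B patches, against 0.137% to 0.194% in T patches. Those near B markers held 0.121% to 0.178% in B patches and 0.0207% to 0.0408% in T patches. Whether such counts came from cells of the other lineage was not tested. Regions near macrophage markers (8 regions) held 0.0172% to 0.0294% in B patches and 0.00308% to 0.0168% in T patches, and those near dendritic cell markers (9 regions) 0.0192% to 0.0309% in B patches and 0.00683% to 0.0128% in T patches. Regions near stroma and endothelium markers (3 regions) held 0.00322% to 0.0104% in B patches and 0.000521% to 0.00296% in T patches. The 3 lists thus stood higher in every B patch library than in any T patch library. Within the macrophage list 5 of 8 fold changes were positive, and the 1 region called was near Adgre1 (2.65 ± 0.70). The region near Itgam with the smallest p had -2.66 ± 1.40. NK marker regions overlapped, with 0.0148% to 0.0276% in B patches and 0.0143% to 0.0322% in T patches. So did the 1 erythroid region (0.00370% to 0.00729% and 0.00116% to 0.00905%). The part of other cell types in the differences below was not tested. In such bulk samples, fewer cells of a type and less accessibility per cell cannot be told apart.

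Few of the 35 brake regions passed the test between B and T patches. Values are normalized CPM, which are counts brought to one library size by TMM scaling, and fold changes are log2 of B over T from edgeR's quasi-likelihood test with Benjamini-Hochberg adjustment over the 25712 regions tested; all 35 brake regions were tested. With an adjusted p under 0.05 as the threshold, 1 of the 35 (2.86%) was called, higher in B, beside 2.27% of all tested regions (1.22% higher and 1.05% lower in B). At an unadjusted p under 0.05, 7 of the 35 (20%) passed, beside 12.7% of all regions. The log2 fold change was positive in 14 and negative in 21, from -2.99 to 2.75, with a median of -0.25 beside -0.026 over all regions. In absolute size the median was 0.94, beside 0.57 over all regions. The 5 B values and 5 T values did not overlap in 3 of the 35 regions (8.57%), 1 with B above T and 2 with B below T, beside 8.03% of all regions (4.33% and 3.69%). These shares lie near the background. edgeR's newer quasi-likelihood fit, added after the data were seen, called 6 of the 35 (17.1%, 3 higher and 3 lower in B), beside 11.5% of all regions (6.33% and 5.18%), and DESeq2 called 3, beside 8.2%.

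**Figure D1:**
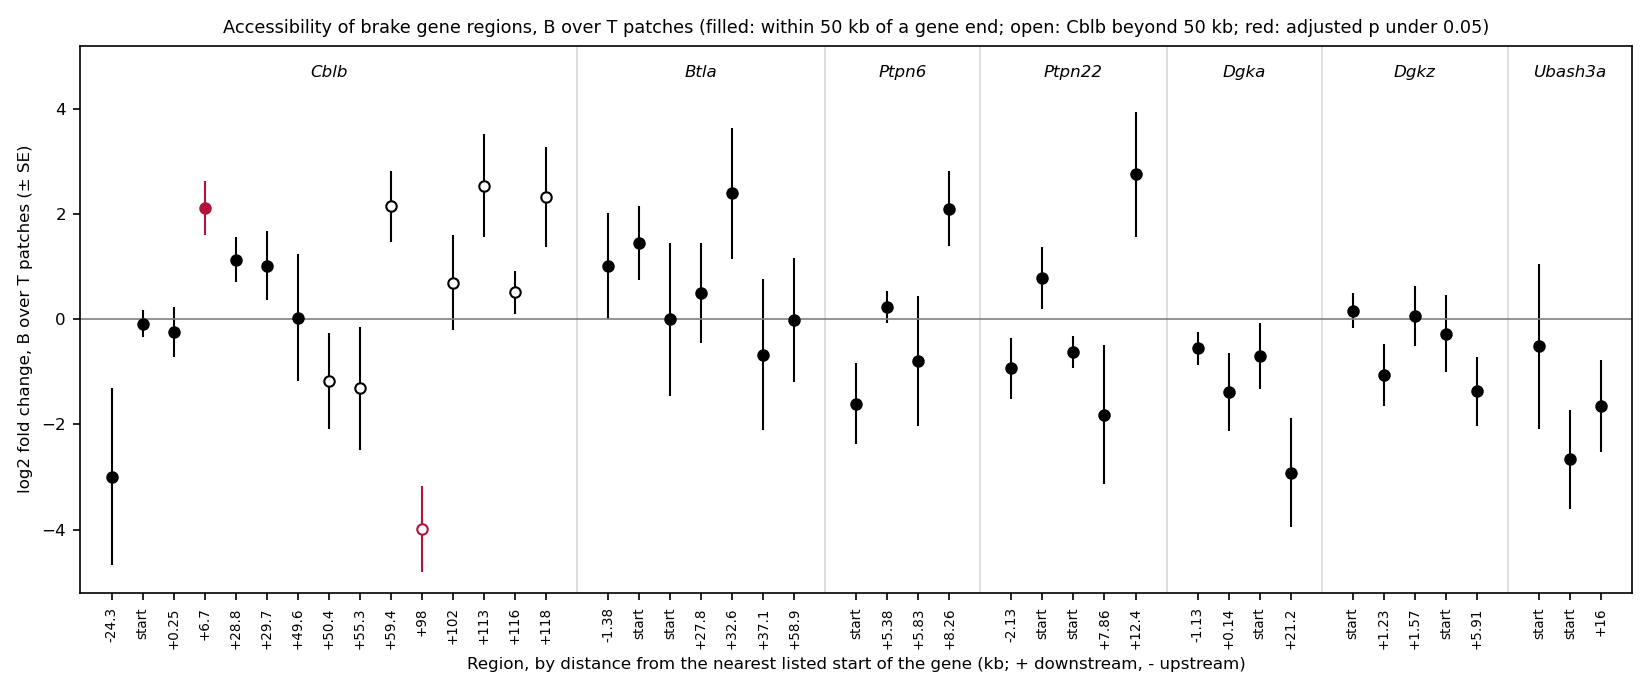
Log2 fold change of B over T patches with its standard error (vertical axis) for each brake region, grouped by gene and ordered along transcription, with labels in kb from the nearest listed start. Filled points are the 35 brake regions and open points 8 further regions inside Cblb; the red points, adjusted p under 0.05, lie at 2.11 (6.70 kb downstream of the Cblb start) and -3.99 (98.0 kb downstream).

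Brake regions away from transcription starts had larger absolute fold changes between B and T patches than those over a start, a difference that was not tested. A region is counted here as over a start when it overlaps the window from 250 bases before to 50 after it. Not every such region reaches the start itself. Of the 35 regions, 11 overlapped such a window, and these had a median absolute log2 fold change of 0.63 with 0 called (1 at an unadjusted p under 0.05). The other 24 had a median of 1.04, with 1 called and 6 at an unadjusted p under 0.05. Over all tested regions the same order held: 0.33 for 8201 regions over a start, of which 0.756% were called, and 0.76 for 17511 others, of which 2.98% were called. Among brake regions the levels of the 2 kinds were close, with a median of 104 normalized CPM per kb over starts and 92.6 elsewhere. Over all tested regions the medians were further apart, at 94.2 over starts and 66.5 elsewhere.

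BTLA is the receptor of the set, an inhibitory receptor of the immunoglobulin family whose ligand is HVEM. The region over most of its promoter window, ending just short of the start (chr16:45224059-45224322), had 25.8, 68.3, 12.3, 20.7 and 11.6 normalized CPM in B patches. T patches had 3.56, 4.42, 8.08, 22.8 and 11.8. B library 2 was far above the rest and the groups overlapped. B over T came to 1.44 ± 0.71 on the log2 scale (SE; adjusted p = 0.407), and it lay between 0.80 and 1.98 when each library was left out. The 6 other Btla regions were low, with group means from 3.06 to 13.8 normalized CPM in B patches and from 2.58 to 8.99 in T patches, and none was called. One of them (chr16:45224353-45224462) overlapped the same promoter window and showed no difference, with 3.065 ± 2.94 in B patches, against 3.039 ± 1.939 in T patches (SD, n = 5 each; log2 fold change -0.0048). The largest difference among them was 32.6 kb downstream of the start, beyond the end of the gene, with 13.8 ± 8.89 normalized CPM in B patches, against 2.58 ± 2.56 in T patches (SD, n = 5 each; log2 fold change 2.39 ± 1.24, adjusted p = 0.456).

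Summed over its 7 regions, Btla had 65.9, 177, 43.4, 80.3 and 53.1 normalized CPM in B patches, against 47.3, 25.7, 38.6, 53.8 and 57.5 in T patches. B values were higher on average, yet 2 of them lay within the T range. The log2 fold change was 0.90 ± 0.38 with an adjusted p of 0.253, from edgeR on sums for all 11162 genes tested. Without B library 2 it was 0.44 (adjusted p = 0.617). Per kb of covered sequence Btla was the lowest of the 7 genes in T patches, at 40.6 normalized CPM per kb, and second lowest in B patches, at 76.5.

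Ptpn6 encodes SHP-1, the phosphatase that many inhibitory receptors recruit. Its 4 regions differed in direction. Inside the gene, 8.26 kb downstream of the start (chr6:124730277-124730450), B patches had 92.8, 23.1, 50.4, 51.0 and 44.3 normalized CPM, against 25.7, 17.3, 11.8, 0 and 6.45 in T patches. Only B library 2 lay within the T range. The log2 fold change of 2.10 ± 0.71 did not pass edgeR's test (adjusted p = 0.145, and 0.101 to 0.401 with each library left out). It passed with DESeq2 (adjusted p = 0.0248) and with edgeR's newer fit (adjusted p = 0.000467).

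Just upstream of the start of Ptpn6 (chr6:124738807-124738947, inside the promoter window printed above) the values ran the other way. B patches had 17.4, 0, 18.2, 5.41 and 9.96 normalized CPM, against 21.1, 62.3, 27.8, 18.3 and 27.4 in T patches. Every B value lay below every T value, the nearest pair being 18.2 in B and 18.3 in T. On the log2 scale B over T was -1.61 ± 0.77 (adjusted p = 0.395). The region with the most signal, 5.38 kb downstream of the start (chr6:124732960-124733327), had 81.4 ± 19.7 in B patches, against 69.7 ± 22.1 in T patches (SD, n = 5 each), a log2 fold change of 0.23 ± 0.31 (adjusted p = 0.901). The fourth, 5.83 kb downstream, had 6.18 ± 6.04 and 10.8 ± 7.08 in B and T patches. The sum over the 4 regions was 156 ± 44.9 in B patches, against 130 ± 28.4 in T patches (SD, n = 5 each; log2 fold change 0.27 ± 0.24, adjusted p = 0.717).

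PTPN22 is a phosphatase that acts on kinases of the antigen receptor pathway. Its 5 regions all lie inside the gene. The region with the most signal covers a start (chr3:103859862-103860384) and had 55.4, 43.7, 50.2, 47.8 and 50.6 normalized CPM in B patches, against 66.4, 95.2, 99.3, 78.7 and 44.7 in T patches. Of the T values, 4 lay above all B values and T library 5 lay among them. The log2 fold change was -0.63 ± 0.31 (adjusted p = 0.396).

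A smaller Ptpn22 region 12.4 kb downstream of a start (chr3:103872672-103872820) had 4.65, 31.2, 20.7, 11.3 and 16.8 normalized CPM in B patches, against 1.27, 0, 7.28, 0 and 3.56 in T patches. One pair of values crossed, B library 1 and T library 3. Its log2 fold change was 2.75 ± 1.19, the highest of the 35 (adjusted p = 0.308). The region nearest a gene end, 2.13 kb upstream of the nearer listed start, had 16.2 ± 7.41 in B patches, against 31.1 ± 20.6 in T patches (SD, n = 5 each; -0.94 ± 0.58, adjusted p = 0.588). The neighbouring start region had 36.7 ± 15.1 in B patches, against 21.4 ± 14.5 in T patches, and the region 7.86 kb downstream 4.22 ± 6.30 in B patches, against 15.1 ± 14.7 in T patches. The sum over the gene was 130 ± 29.8 in B patches, against 154 ± 41.4 in T patches (-0.24 ± 0.23, adjusted p = 0.742), so the opposite signs of its regions were not visible in the sum.

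CBL-B is a ubiquitin ligase known for limiting lymphocyte activation. Its start region had the highest level of any brake region, and its values covered much the same range in both cell types. This region (chr16:52031046-52031729, around the promoter printed above) had 173, 88.1, 170, 197 and 185 normalized CPM in B patches, against 162, 111, 163, 202 and 224 in T patches. Library 2 was lowest in both groups. The log2 fold change was -0.085 ± 0.26 (adjusted p = 0.968), and its sign turned without B library 2 (0.070) or T library 5 (0.012).

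The called brake region lay 6.70 kb downstream of that start, inside Cblb (chr16:52038245-52038621). It had 58.5, 28.6, 59.6, 73.5 and 26.2 normalized CPM in B patches, against 3.81, 14.5, 12.5, 11.3 and 15.1 in T patches. All B values lay above all T values, with B libraries 2 and 5 nearest to them. It rose in B patches with a log2 fold change of 2.11 ± 0.51 (adjusted p = 0.0320). It missed the threshold in 7 of the 10 fits with a library left out (B library 1, 3 or 4, T library 1, 3, 4 or 5; adjusted p = 0.0519 to 0.121), with the replicate number as a block (adjusted p = 0.114) and with library size as the only scaling (adjusted p = 0.0520). A joint fit with the 100 nuclei libraries called 0 of 25712 regions between B and T patches. The miss of this region in that fit (adjusted p = 0.9999) is therefore shared by every region.

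Further into Cblb, regions 28.8 kb and 29.7 kb downstream of the start also had higher means in B patches, below the test's threshold. The first had 78.3 ± 38.2 in B patches, against 35.8 ± 17.8 in T patches (SD, n = 5 each; 1.13 ± 0.43, adjusted p = 0.213). The second had 22.4 ± 8.03 and 11.1 ± 5.32 in B and T patches (1.01 ± 0.65, adjusted p = 0.620). The region just downstream of the start (0.25 kb) had 33.4 ± 11.8 and 39.6 ± 24.1, and the one 24.3 kb upstream had 1.25 ± 2.71 and 10.1 ± 9.13. The sum over the 7 regions was 373 ± 53.9 in B patches, against 300 ± 57.4 in T patches (SD, n = 5 each; 0.31 ± 0.18, adjusted p = 0.496).

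The 50 kb limit cuts through Cblb, which is a long gene. The last region inside the limit, 49.95 kb from the gene end, had 9.11 ± 6.64 in B patches, against 8.89 ± 9.32 in T patches, and the first outside it, at 50.72 kb, had 8.54 ± 9.41 and 19.4 ± 3.99. Inside the gene, 8 more regions lay beyond the limit from both ends and are not among the 35. Their log2 fold changes ran from -3.99 to 2.54. Of the 8, 1 was called, beside 2.27% of all regions, and 2 had groups that did not overlap, beside 8.03% of all regions.

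That region lay 98.0 kb downstream of the start (chr16:52129543-52129902) and had 1.501, 0, 0.627, 2.93 and 6.97 normalized CPM in B patches, against 44.8, 62.7, 25.8, 34.8 and 30.9 in T patches. B values were near 0 and all T values were far above them. It fell in B patches by 3.99 on the log2 scale, with a standard error of 0.81 (adjusted p = 0.0117), and passed in all 10 fits with a library left out (adjusted p = 0.00781 to 0.0387). The joint fit, which called 0 of all regions in patches, did not call it (adjusted p = 0.9999). Cblb thus held 1 region higher in B and 1 higher in T patches within the same gene, while its start did not separate them. Another, 59.4 kb downstream, had every B value above every T value, with 28.8 ± 11.9 in B patches, against 6.46 ± 3.73 in T patches (SD, n = 5 each; 2.14 ± 0.68, adjusted p = 0.110).

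**Figure D2:**
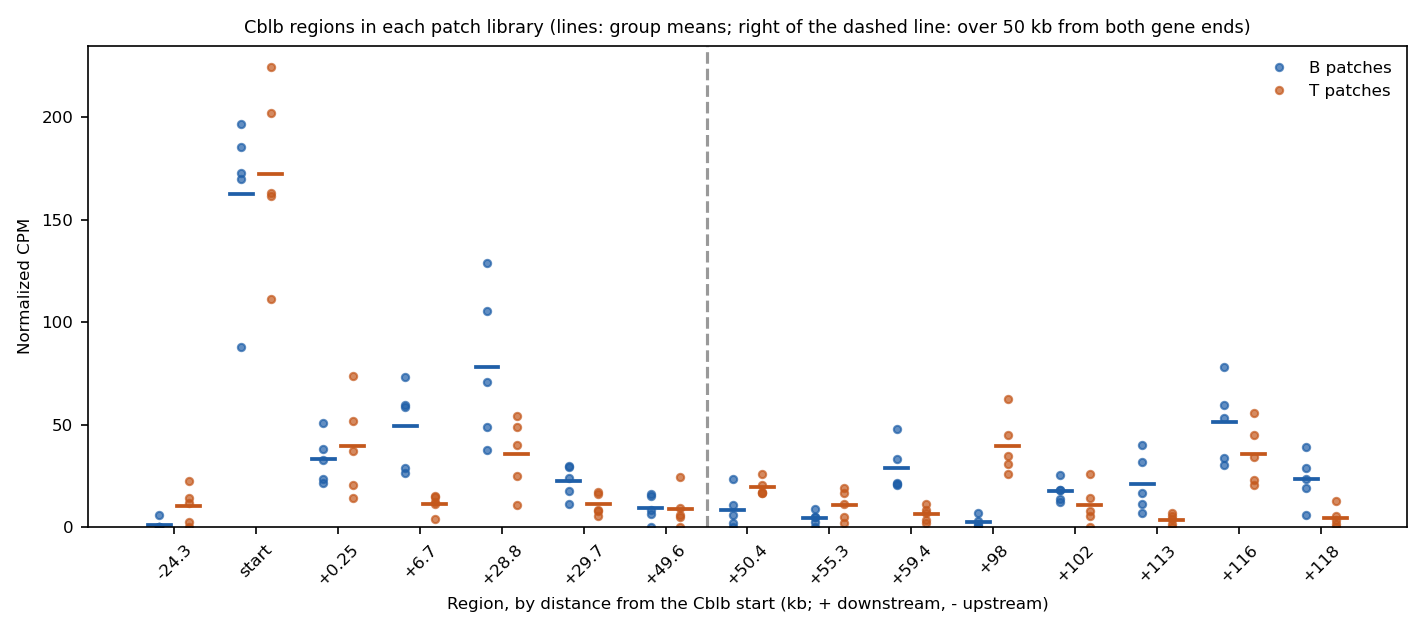
Normalized CPM (vertical axis) of each region in and around Cblb, ordered by distance from the start in kb, in every B patch (blue, left) and T patch (orange, right) library; lines are group means and the dashed line marks the 50 kb limit. The start region stands at 88.1 to 197 in B patches and 111 to 224 in T patches, while B lies above T at 6.70 kb and T above B at 98.0 kb.

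UBASH3A, also called STS-2, is an adaptor with a ubiquitin-binding domain known mainly from T cells. Its start region (chr17:31207886-31208168, across the second part of the promoter printed above) had 21.8, 0, 0, 2.48 and 5.48 normalized CPM in B patches, against 34.8, 49.8, 46.0, 41.6 and 21.1 in T patches. B library 1, at 21.8, was the one B value within the T range. On the log2 scale B over T was -2.67 ± 0.94 (adjusted p = 0.166). The call was made in 1 of the 10 fits with a library left out, that without B library 1 (-4.20, adjusted p = 0.0437). It was also made with edgeR's newer fit (adjusted p = 0.00130) but not with DESeq2 (adjusted p = 0.181).

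The other Ubash3a regions were weaker and also had negative fold changes. The one at the upstream edge of the promoter window had 3.16 ± 4.48 in B patches, against 4.55 ± 5.53 in T patches (SD, n = 5 each). The one 16.02 kb downstream of the start had 8.06 ± 6.46 in B patches, against 25.7 ± 18.8 in T patches. Neither was called. The gene's sum was 38.9, 0, 8.51, 20.4 and 19.2 in B patches, against 51.9, 131, 87.9, 66.6 and 26.3 in T patches. B library 1 lay above T library 5, and the groups otherwise stood apart. The log2 fold change of the sum was -2.04 ± 0.67 (adjusted p = 0.106). It passed with DESeq2 (adjusted p = 0.0288), which called 7.11% of all gene sums, with edgeR's newer fit (adjusted p = 0.00299), without B library 2 (adjusted p = 0.0439) and without both libraries numbered 2 (adjusted p = 0.0481).

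DGK-alpha converts diacylglycerol to phosphatidic acid, which removes a signal for Ras and protein kinase C. Summed over its 4 regions, Dgka had 99.3, 70.0, 86.6, 68.4 and 95.0 normalized CPM in B patches, against 201, 152, 157, 134 and 129 in T patches. Every B value lay below every T value. Dgka fell in B patches by 0.88 on the log2 scale, with a standard error of 0.22 (adjusted p = 0.0258), and was the only one of the 7 gene sums to be called. The background was 4.27% of 11162 genes (2.34% higher and 1.94% lower in B), and 7.52% of genes had groups that did not overlap (3.93% with B above T and 3.58% with B below T). Leaving out B library 3, B library 4, T library 1 or T library 3 ended the call (adjusted p = 0.0598 to 0.0923). The joint fit called 0 of the 11162 gene sums in patches, so the miss of Dgka there is shared by every gene.

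All 4 Dgka regions were negative, and none was called alone. The region 21.2 kb downstream of the nearest of several listed starts, past the 3′ end of the gene (chr10:128716237-128716394), had 0.750, 10.6, 0.209, 0.225 and 2.99 normalized CPM in B patches, against 38.6, 15.3, 21.1, 16.8 and 17.8 in T patches. B values stayed below all T values, with B library 2 the nearest. Its log2 fold change was -2.92 ± 1.03 (adjusted p = 0.169), and it passed without B library 2 (adjusted p = 0.0243), with DESeq2 (adjusted p = 0.0248) and with edgeR's newer fit (adjusted p = 0.00199).

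The strongest Dgka region, 1.13 kb upstream of another listed start, had 53.5 ± 17.2 in B patches, against 78.9 ± 16.2 in T patches (SD, n = 5 each; -0.56 ± 0.32, adjusted p = 0.519). The region 0.14 kb downstream of that same start had 8.73 ± 5.81 and 22.9 ± 10.98 in B and T patches (-1.38 ± 0.74, adjusted p = 0.480), and the one over a further start 15.7 ± 8.21 and 25.6 ± 13.8 (-0.70 ± 0.62, adjusted p = 0.787). When genes of every biotype were counted, 3 of the 4 Dgka regions lay nearest to the long noncoding gene Gm31504, so the assignment to Dgka rests on the choice of protein-coding genes.

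DGK-zeta catalyses the same reaction. Its first start (chr2:91963525-91963899, over the CpG-rich promoter printed above) had 101, 60.2, 122, 50.7 and 105 normalized CPM in B patches, against 39.1, 74.0, 113, 106 and 61.4 in T patches. The groups covered the same range. B over T came to 0.16 ± 0.33 on the log2 scale (adjusted p = 0.951), with a sign that turned with library size as the only scaling and without T library 1 (-0.011).

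The Dgkz region 5.91 kb downstream of a start (chr2:91944289-91944441) had 4.05, 3.67, 14.4, 6.99 and 22.6 in B patches, against 36.6, 33.8, 24.0, 20.3 and 20.2 in T patches. B library 5 was the one B value within the T range (-1.37 ± 0.66, adjusted p = 0.389). The remaining 3 had means of 13.1 to 22.8 in B patches and 15.8 to 31.8 in T patches, and none was called. The sum over Dgkz was 155 ± 34.1 in B patches, against 181 ± 48.6 in T patches (SD, n = 5 each; -0.23 ± 0.22, adjusted p = 0.755). Dgka and Dgkz, the pair of lipid kinases, thus both had sums below T in B patches, and Dgka alone passed; the difference between the 2 genes was not tested.

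**Figure D3:**
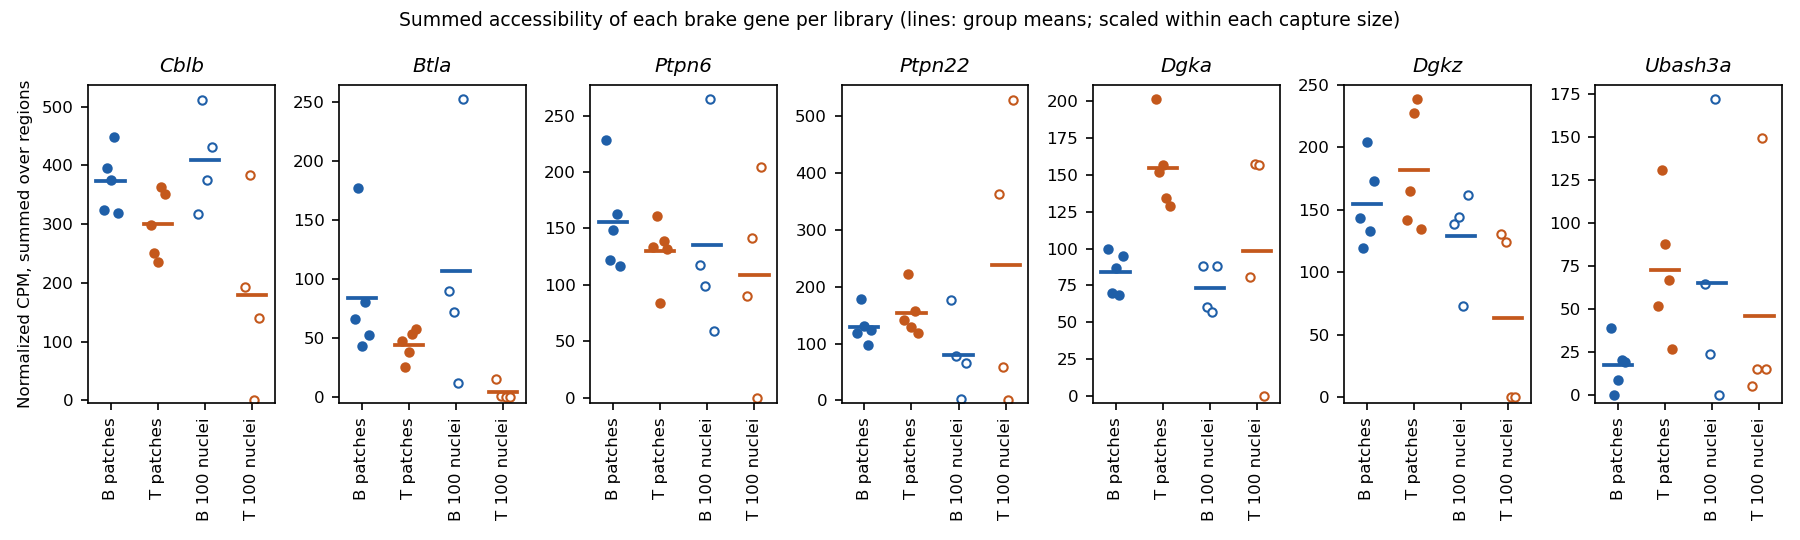
Normalized CPM summed over the regions of each gene (vertical axis, a separate scale per gene) in every library of B patches, T patches, B 100 nuclei and T 100 nuclei, with group means as lines. Dgka in patches is the one gene with no overlap, 68.4 to 99.3 in B and 129 to 201 in T, and T libraries of 100 nuclei reach 0 in 5 of the 7 genes and nearly so in Ptpn22.

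At 100 nuclei no brake region was called by edgeR (0 of 35; 1 at an unadjusted p under 0.05; DESeq2 0). The background was 0.0156% of regions, 4 in all, and these were mitochondrial. The joint fit of all 18 libraries called 7 of the 35 at 100 nuclei (5 higher and 2 lower in B), beside 27% of all regions (18% and 9.06%). At an unadjusted p under 0.05 the background was 5.5%. Reads were found in 98 of the 280 pairs of brake region and library (35%), beside 31.6% over all regions, and where there were reads the median count was 33. Of the 35 regions, 8 had reads in at least 5 of the 8 libraries, 16 in 1 or 2 and 3 in none. The B libraries had reads in 12 to 16 of the 35 regions and the T libraries in 18, 14, 3 and 6, so T libraries 3 and 4 carried little information. Raw counts are given below, because a fitted fold change from counts that are mostly 0 depends on the prior count. Library depth differs as given above, and a 0 shows only that no read was found at that depth.

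The Cblb start had 50, 165, 113 and 56 counts in B libraries, against 97, 272, 0 and 0 in T libraries. The Cblb region 6.70 kb downstream had 0, 19, 52 and 34 in B libraries, against 31, 0, 0 and 0 in T libraries. The T-high Cblb region 98.0 kb downstream had 0 counts in all 4 B libraries, against 69, 76, 0 and 17 in T libraries. The region at 98.0 kb thus had reads in T libraries alone, the side on which it was higher in patches. At 6.70 kb T library 1, with 37.9 normalized CPM, lay above B library 1 at 0 and B library 2 at 36.6. Other Cblb regions differed from their patch values. The region 0.25 kb downstream had 44, 41, 46 and 31 counts in B libraries, against 0, 20, 0 and 0 in T libraries, with a patch log2 fold change of -0.25. The region 115.8 kb downstream, the strongest beyond the 50 kb limit, had 0 in all B libraries, against 65, 109, 0 and 0 in T libraries, with 51.1 ± 19.6 normalized CPM in B patches, against 35.8 ± 14.9 in T patches (SD, n = 5 each; 0.51 ± 0.41, adjusted p = 0.743).

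The Ptpn6 region 8.26 kb downstream had 35, 36, 92 and 24 counts in B libraries, against 73, 0, 0 and 0 in T libraries. The Ptpn6 region just upstream of the start had 0 in all B libraries, against 3, 71, 0 and 122 in T libraries. The Ubash3a start region described above had 33, 12, 57 and 0 counts in B libraries, against 0, 9, 0 and 9 in T libraries, the opposite side from patches. The region at the upstream edge of the Ubash3a promoter window had 0 in all B libraries, against 0, 4, 135 and 0 in T libraries, the same side as in patches. The stronger start region of Btla had 0, 0, 7 and 22 in B libraries, against 0 in every T library.

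**Figure D4:**
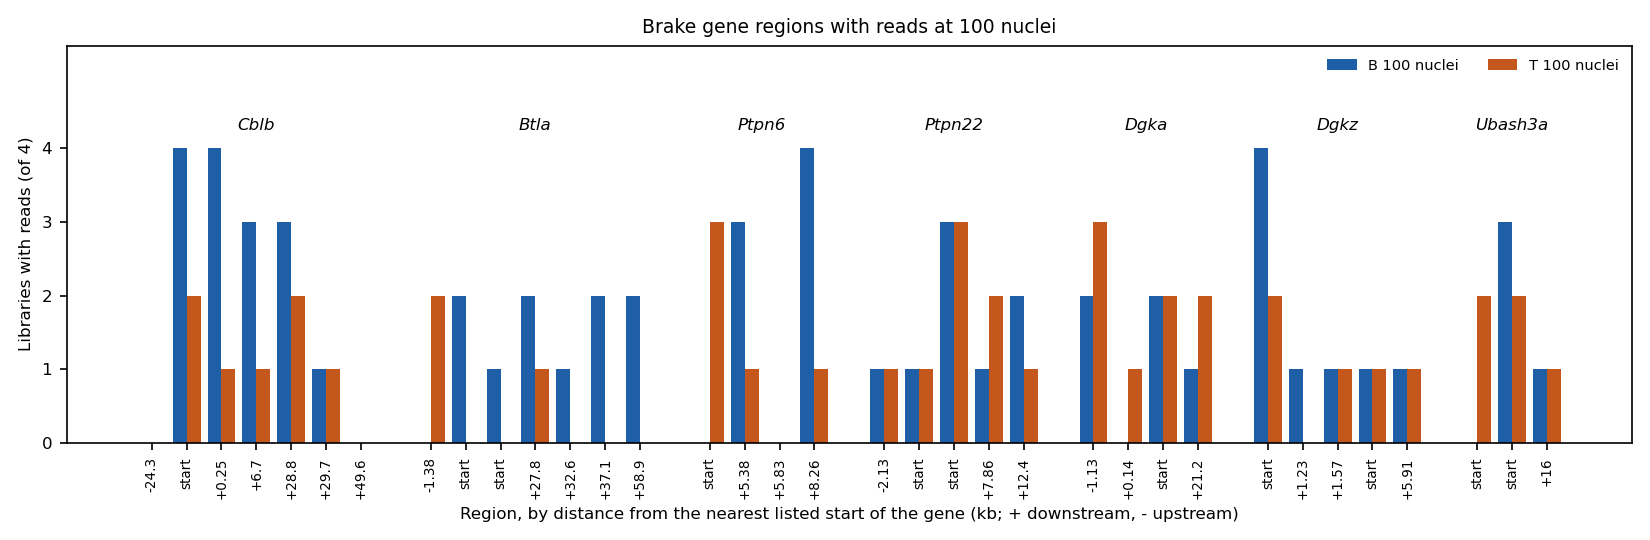
Number of the 4 libraries of 100 nuclei with reads (vertical axis) in each of the 35 brake regions, B left (blue) and T right (orange), ordered by gene and distance from a start in kb. The Cblb start and the first Dgkz start had reads in 4 B and 2 T libraries, and 3 regions had none in either group.

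None of the 7 gene sums was called at 100 nuclei (0 of 7 with edgeR, all with an unadjusted p above 0.05; DESeq2 0), beside 0.0358% of 11162 genes, 4.28% at an unadjusted p under 0.05 and 0.991% with DESeq2. Btla came nearest, with 89.9, 72.1, 12.4 and 252 normalized CPM in B libraries, against 15.4, 1.13, 0 and 0 in T libraries. B library 3 lay below the highest T value, and T counts were 13, 1, 0 and 0. Dgka had 73.3 ± 17.1 in B libraries and 98.5 ± 74.9 in T libraries (SD, n = 4 each), and Cblb 409 ± 83.3 in B libraries and 179 ± 159 in T libraries (SD, n = 4 each). The SD of the T libraries exceeded the difference of the means for Dgka and was smaller than it for Cblb.

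Whether B over T differed between capture sizes was tested with an interaction term over all 18 libraries. No brake region passed in edgeR (0 of 35, beside 0% of all regions; lowest adjusted p = 0.0725). At an unadjusted p under 0.05, 11 of the 35 passed, beside 27.1% of all regions. DESeq2 called 5 of the 35, beside 13.1% of all regions it tested. The edgeR test pools deep and shallow libraries, as the joint fit does. Since it called 0% of all regions, the lack of a called brake region does not show that the capture sizes agree.

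Other parts of the inhibitory network were read from longer lists. Of 39 regions near 13 other inhibitory receptors, 2 were higher in B patches and 2 lower. The higher ones were near Siglecg (log2 fold change 5.27 ± 1.11) and Cd22 (2.04 ± 0.45), both sialic-acid-binding receptors of B cells, and both lower ones were near Cd5 (-2.15 ± 0.46 for the one with the smaller p), which restrains T cells and a subset of B cells. Of 50 regions near 15 inhibitory phosphatases and adaptors, 2 were higher (Csk, 1.83 ± 0.41, and Dok3, 2.82 ± 0.74) and 1 lower (Ubash3b, the relative of Ubash3a, -3.29 ± 0.83). Of 59 near 18 ubiquitin, Ras and lipid brakes, 0 were higher and 2 lower (Rasa3, -1.64 ± 0.42, and Ndfip1, -2.31 ± 0.60). Their shares called were 10.3%, 6% and 3.39%, and that of the 7 genes 2.86%, beside 2.27% overall.

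Among the signalling genes on which the brakes act, the called regions were mostly higher in B patches. Of 95 regions near 21 such genes, 9 were higher in B patches and 1 lower (10.5%). The 4 with the smallest p were near Syk (2.64 ± 0.37), Cd79b (2.99 ± 0.53), Lyn (2.51 ± 0.49) and Plcg2 (1.65 ± 0.35), all of the B cell receptor pathway, with adjusted p from 0.00162 to 0.0155. The median log2 fold change of the list was 0.82, beside -0.25 for the brake regions and -0.026 for all regions. Some genes of this list, Cd79b and Lck among them, are also markers of B and T cells, and the difference between the lists was not tested.

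For each gene, the region of another gene with the most similar pattern over the 10 patch libraries was sought by Pearson's r of log2 normalized CPM, as a description without a test. The Ubash3a start was most like a region near Tec (r = 0.976), the Cblb start like one near Fzd7 (0.964) and the strongest Dgka region like one near Rad9a (0.954). The strongest Ptpn22 region was most like one near Btg1 (0.935) and the stronger Btla start region like one near Kcnj1 (0.925). The Dgkz start was most like one near Ino80d (0.900), and the strongest Ptpn6 region like one near Coro2a (0.889). Each was the best of at least 12052 regions, and libraries share depth and scaling.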

How the data were processed

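Raw counts, whole numbers per region and library, were deposited by the authors for 27396 regions and 18 libraries, on build mm10. The submitters' processing notes name MACS2 2.2.7.1, Bowtie2 2.4.5, SAMtools 1.14, Trimmomatic 0.36, deepTools 3.5.2, bcl2fastq 2.20, R 4.1.0 and Picard. The sources used here do not give their settings, how regions were called, how duplicate reads were treated, whether reads were shifted for the transposase, or whether region starts count from 0 or 1. No molecular identifiers were stated, so counts are not independent molecules.

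Each region was given the protein-coding gene with the nearest end within 50 kb, from a RefSeq gene table of GRCm38.p6, which shares coordinates with mm10; 86.7% of regions had one. Starts were taken from RefSeq's promoter windows, and a region that overlapped a window was counted as over its start. Counts were tested with edgeR 4.0.16 in R 4.3.3 (TMM, filterByExpr with a minimum count of 10, quasi-likelihood F-test, Benjamini-Hochberg at 0.05), on regions and on sums per gene, separately for patches and 100 nuclei, with an interaction over 18 libraries. Standard errors are log2 fold changes over the root of F. Levels are normalized CPM, as mean ± SD. The test was tried on simulated counts. No 2 libraries of a group agreed within counting noise.

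The 7 genes, the other lists and the alternatives were chosen with earlier results of these data known. Regions described in full were, per gene, the one nearest a gene end, the one with the highest mean in patches and the one with the smallest p in patches; per other list, up to 4 genes with the smallest p were named, of which the text gives some. Regions are identified by distance from the nearest listed start. Alternatives were DESeq2 1.42.0, RLE factors, library size alone, other filters, no mitochondrial regions, the replicate number as a block, a joint fit, libraries left out, other limits of distance, and, added after the data were seen, edgeR's newer fit and genes of every biotype. No genome was used, so sequences of regions away from starts are not shown.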

Additional observations from a re-analysis of the deposited data

Results flagged for a closer look

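Of 98 groups of 4 or 5 libraries examined, over the 35 brake regions in patches and the 7 gene sums, 13 held a library whose gap to the nearest other exceeded Dixon's 95% value. Chance gives about 1 in 20 for independent, normally spread values. Sparse counts are not spread so, and the sums repeat their regions, so the 13 are not shown to exceed chance. All values are normalized CPM, and no cause was tested. B patch library 2, the shallowest of the B patch libraries, stood apart in 5 of the 13 groups. It was lowest at the Cblb start (88.1, the others 169.8 to 196.8). It was highest in the stronger Btla start region (68.3, the others 11.6 to 25.8), in the Btla region 27.8 kb downstream (30.5, the others 5.23 to 10.2), in the Btla sum (177, the others 43.4 to 80.3) and in the Dgka region 21.2 kb downstream (10.6, the others 0.209 to 2.99). B patch library 4 was highest 24.3 kb upstream of Cblb (6.09, the others 0 to 0.150), and B patch library 1 at the Ubash3a start (21.8, the others 0 to 5.48).

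Among T patches, library 1 was highest in the Btla region 27.8 kb downstream (22.1, the others 2.76 to 7.23) and in the Dgka region 21.2 kb downstream (38.6, the others 15.3 to 21.1). T patch library 2, the shallowest of the T patch libraries, was highest in the Ptpn6 region just upstream of the start (62.3, the others 18.3 to 27.8). T patch library 3 was highest in the Dgkz region 1.57 kb downstream of a start (41.5, the others 13.2 to 19.3). At 100 nuclei, T library 1 was highest in the Btla sum (15.4, the others 0 to 1.13) and T library 3 in the Ubash3a sum (149.7, the others 4.74 to 15.1).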

How the results depend on the processing

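Over all regions, edgeR called 583 between B and T patches. The count was 2102 with DESeq2, 2960 with edgeR's newer fit, 1156 without both patch libraries numbered 2, 0 in the joint fit and 259 to 673 with each library left out. With library size alone, 232 were higher and 362 lower in B, against 314 and 269 with TMM, since the median log2 fold change of all regions moved to -0.19. At 100 nuclei 4 regions were called, 0 with DESeq2 or without mitochondrial regions, 6955 in the joint fit and 2 to 4 with each library left out. For the difference between capture sizes 0 were called, 2 with RLE factors, 5 with a minimum count of 30, 3255 with DESeq2 and 0 to 419 with each library left out. Of gene sums in patches 477 were called, 792 with DESeq2, 914 with the newer fit, 314 from regions inside genes or within 5 kb, 762 without both libraries numbered 2, 0 in the joint fit and 324 to 542 with each library left out. Of sums at 100 nuclei 4 were called, 87 with DESeq2, 1086 in the joint fit, 12 without T libraries 3 and 4 and 3 to 6 with each library left out. The causes were not tested.

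Replicate numbers gave no clear pairing of B and T libraries. The deviations from the group means of same-numbered libraries correlated at -0.0138 to 0.0332, and the best match had the same number for B patch library 2 alone. Noise in sparse regions can hide a weak pairing, so this check does not exclude one. With the replicate number as a block, 215 regions were called in patches, 0 at 100 nuclei and 0 for the difference, and 374 and 2 gene sums in patches and at 100 nuclei. Under that block the Cblb region 6.70 kb downstream had an adjusted p of 0.114, and no brake region passed.

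For the named regions and sums of the 7 genes, 584 alternative values kept their direction and their side of the threshold, 13 passed it only under the alternative, 16 only without it and 12 changed sign. In patches sign changes were found at the Cblb start (-0.23 to 0.070 with each library left out), the upstream Ubash3a start region (-1.83 to 0.15, and 0.48 without both libraries numbered 2) and the Dgkz start (-0.011 to 0.33, and -0.0023 with library size alone). At 100 nuclei they were found for the sums of Ptpn6 (-0.25 to 0.76, and -0.36 with library size alone), Dgka (0.14 with the block) and Ubash3a (-0.65 to 2.48, and -0.25 with library size alone). The Btla sum at 100 nuclei passed in the joint fit alone (4.72, adjusted p = 0.0410). A limit of 20 kb left 30 brake regions, counting whole gene bodies gave 45 and genes of every biotype 28. At 100 nuclei most regions held no reads, which limits every comparison there.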
